A study of Drosophila melanogaster with 3 samples.

Results

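The intergenic distal peaks of Snoo were the sites of the fusion protein outside gene bodies and away from transcript starts, though as near as 4 bp to a gene body. They were taken from the list of reproducible peaks (thresholded by the authors on the irreproducible discovery rate, IDR) as those whose summit, the highest point of a peak, fell outside every annotated gene body and more than 1000 bp from every transcript start. Transposable elements were not counted as genes. This held for 884 of 6633 peaks (13.3%, exact 95% interval 12.5 to 14.2%, which covers counting error only), against 2178 in gene bodies away from starts and 3571 within 1000 bp of a start. No summit of the 884 lay in an annotated transposable element, and few of the other 5749 did (10, or 0.174%).

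Snoo belongs to the Ski and SnoN proteins, nuclear coregulators that have no enzymatic activity of their own. They meet DNA through partner proteins, above all the Smad proteins that carry TGF-beta and BMP signals to the nucleus, and they can turn Smad complexes from activation to repression. In flies, Snoo has been described both as an antagonist of Dpp, a BMP ligand, and as a mediator of activin signals. Sequence between genes often holds enhancers, which act over a distance on genes that need not be the nearest ones, so a flanking gene is a position and not a target.

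Occupancy was measured by ChIP-seq with an antibody against GFP on sonicated chromatin. The single group was whole Drosophila melanogaster at the pupal stage, males and females pooled, of unknown age, all with a snoo-eGFP fusion made by an eGFP exon in an intron of snoo (the snoo-MiMIC strain). There were 3 biological replicates, numbered 3, 5 and 6, and the spread given here is between these samples. As a model the group is 1 insertion line and a mixture of all tissues, its peaks report the tagged protein only, and the samples hold no control library, so signal that any precipitation would give was not measured. Read depth is unknown, since the lists give no counts.

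A single word of 8 bases, CACTGAGA, was met in 60 of the 884 windows of 100 bp on each side of an intergenic distal summit. Sequences that carry it are shown first because its distance and direction relative to the summit were alike at most of them. The word was chosen after short words had been counted in these windows, so its share is a description, and no factor is named for it. The 10 carriers shown here, all among the stronger ones, are read in the direction of the word, 5′ to 3′, from the RefSeq assembly of dm6, with the word in capitals. They are named by the flanking coding genes.
CG7320 to CheA75a, chr3L:18236085-18236125, minus strand: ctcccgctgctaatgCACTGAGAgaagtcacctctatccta
hng3 to CG13898, chr3L:762574-762614, minus strand: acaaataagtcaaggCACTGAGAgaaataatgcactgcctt
CG11550 to CG42693, chr3R:31698385-31698425, minus strand: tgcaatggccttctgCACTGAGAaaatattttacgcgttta
CG4218 to CG3473, chr2L:14554135-14554175, minus strand: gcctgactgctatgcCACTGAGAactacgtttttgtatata
Wnt6 to Wnt10, chr2L:7358118-7358158, plus strand: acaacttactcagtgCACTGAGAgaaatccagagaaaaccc
CG13898 to Sf3b3, chr3L:821985-822025, plus strand: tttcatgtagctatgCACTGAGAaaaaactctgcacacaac
Dr to CG7567, chr3R:29567091-29567131, plus strand: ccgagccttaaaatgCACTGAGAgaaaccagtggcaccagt
CG43401 to CG43402, chr2L:1433959-1433999, minus strand: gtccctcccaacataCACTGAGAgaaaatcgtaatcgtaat
drl to CG31797, chr2L:19226474-19226514, minus strand: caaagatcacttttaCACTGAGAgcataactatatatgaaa
noc to CG33648, chr2L:14502689-14502729, plus strand: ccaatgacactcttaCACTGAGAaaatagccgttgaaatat

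The sequences at the centre of 8 of the strongest intergenic distal peaks are shown next, with 50 bp on each side of the summit, on the plus strand of the same assembly. Capitals mark a match on either strand to any of 20 motifs of known factors or repeats listed for this comparison. Only the COX7AL2 peak at 2202361 (GCCATTT, the core of sites for Pleiohomeotic, a DNA-binding Polycomb group protein) and the NijA peak (TTTATTG, a site type of Abd-B class Hox proteins, here on the minus strand) held one. The 8 sequences had between 22.8% and 39.6% G+C.
COX7AL2 to CG31668, chr2L:2202361-2202461, plus strand: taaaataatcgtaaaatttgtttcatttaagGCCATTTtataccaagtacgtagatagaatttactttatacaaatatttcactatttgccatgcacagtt
CG43245 to CG12523, chr3L:10776523-10776623, plus strand: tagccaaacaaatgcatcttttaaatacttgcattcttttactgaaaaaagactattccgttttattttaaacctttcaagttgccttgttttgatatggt
CG12078 to CG43389, chr3L:3246468-3246568, plus strand: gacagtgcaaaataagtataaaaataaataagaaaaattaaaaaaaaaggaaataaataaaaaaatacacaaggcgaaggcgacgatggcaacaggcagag
Sol1 to Cyp9f2, chr3R:12403086-12403186, plus strand: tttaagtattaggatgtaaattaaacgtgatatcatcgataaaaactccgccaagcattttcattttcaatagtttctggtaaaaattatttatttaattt
NijA to CG43245, chr3L:10760287-10760387, plus strand: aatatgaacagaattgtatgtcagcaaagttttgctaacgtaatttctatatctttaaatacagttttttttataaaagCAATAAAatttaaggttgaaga
COX7AL2 to CG31668, chr2L:2199309-2199409, plus strand: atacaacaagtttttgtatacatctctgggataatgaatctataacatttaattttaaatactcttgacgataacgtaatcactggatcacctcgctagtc
hng3 to CG13898, chr3L:802849-802949, plus strand: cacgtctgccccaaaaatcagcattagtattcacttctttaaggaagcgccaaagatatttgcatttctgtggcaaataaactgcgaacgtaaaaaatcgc
CG13896 to hng3, chr3L:724674-724774, plus strand: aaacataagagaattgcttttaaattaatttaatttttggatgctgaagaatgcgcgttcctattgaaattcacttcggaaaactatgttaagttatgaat

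Intergenic distal peaks began at the lowest signals of the list and stopped short of its highest, 4785. Signal is the value of the authors' peak caller in arbitrary units, and in whole animals a site occupied in more cells cannot be told apart from more protein at each copy. The 884 peaks ran from 128 to 2688 with a median of 217 and quartiles of 164 and 333. The median of the other 5749 peaks was 223. Signals above 1000 were reached by 16 intergenic distal peaks (1.81%) and by 3.74% of the others. Peaks in gene bodies away from starts were alike, with a median of 217 and 1.88% above 1000. Those within 1000 bp of a start had a median of 225 and 4.87% above 1000. The intervals of intergenic distal peaks were somewhat narrower, with a median width of 317 bp (109 to 1637 bp) against 370 bp for all others. The median width was 345 bp in gene bodies and 388 bp near starts.

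Strength was then compared within each replicate. Signal was not used to divide the summits by position, although the replicates had entered the list of reproducible peaks itself. Intergenic distal summits matched within 150 bp to a region of the replicate had a median signal of 56.7 in replicate 3, 66.6 in replicate 5 and 104 in replicate 6. The other summits had medians of 63.1, 71.7 and 103 in the same replicates. The intergenic distal median was thus lower in replicates 3 and 5 and level in replicate 6. On the log2 scale the difference was −0.15, −0.11 and 0.01, with a mean of −0.08 ± 0.09 (SD, n = 3), which an exact sign-flip permutation test over replicates did not separate from 0 (two-sided p = 0.5, where 3 replicates cannot go below 0.25). Each replicate has its own scale, so the values are compared only within a replicate.

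Intergenic distal peaks were recovered about as often as the rest. A summit was called found where 1 of the strongest 6633 regions of a replicate had a summit within 150 bp. Of the 884, 490 were found in all 3 replicates (55.4%), against 55.5% of the whole list, so this share stood at the background. A further 251 were found in 2 replicates, 136 in 1 and 7 in none. By replicate, 74.9% were found in replicate 3, 75.7% in replicate 5 and 87.9% in replicate 6, against 76.3, 80.4 and 82.2% of the other summits. The difference was negative in replicates 3 and 5 and positive in replicate 6, with a mean of −0.167 percentage points ± 5.32 (SD, n = 3; exact sign-flip permutation p = 1, two-sided). It turned positive in several other settings, given after the report.

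The share of summits in this class was itself similar between replicates. Among the strongest 6633 regions of each, it was 12.4% in replicate 3, 11.9% in replicate 5 and 13.4% in replicate 6 (mean 12.6% ± 0.783, SD, n = 3). Of 30000 pooled candidate regions, a list that includes background by design, 4604 were intergenic and distal (15.3%). Of these candidates 19.2% were in the reproducible list, against 28.4% of candidates near starts and 17.0% of those in gene bodies.

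Most of these peaks lay a few kilobases from the nearest start. The median distance was 4008 bp and the range 1001 to 39355 bp. The nearest start belonged to a protein-coding gene for 558 peaks, to a non-coding RNA for 298, to a tRNA for 26 and to a snoRNA for 2. When only coding starts were counted, the median distance was 6064 bp. Just inside the limit lay a peak 1001 bp from lncRNA:CR45541 (signal 232), 1 at 1002 bp from ex (signal 592) and 1 at 1002 bp from kek1 (signal 149). Just outside it were summits at 991 bp from chinmo (signal 144), 988 bp from CG12523 (signal 205) and 987 bp from lncRNA:CR45754 (signal 274).

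Strength changed little with distance. The median signal was 238 for the 224 peaks up to 2000 bp from a start, 223 for the 307 between 2000 and 5000 bp, 209 for the 244 between 5000 and 10000 bp and 200 for the 109 farther away. The share found in all 3 replicates was 60.3, 53.4, 54.1 and 54.1% in the same order. Over the 884 peaks, Spearman's correlation between signal and distance was −0.08, as a description over peaks of the same libraries.

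**Figure D1:**
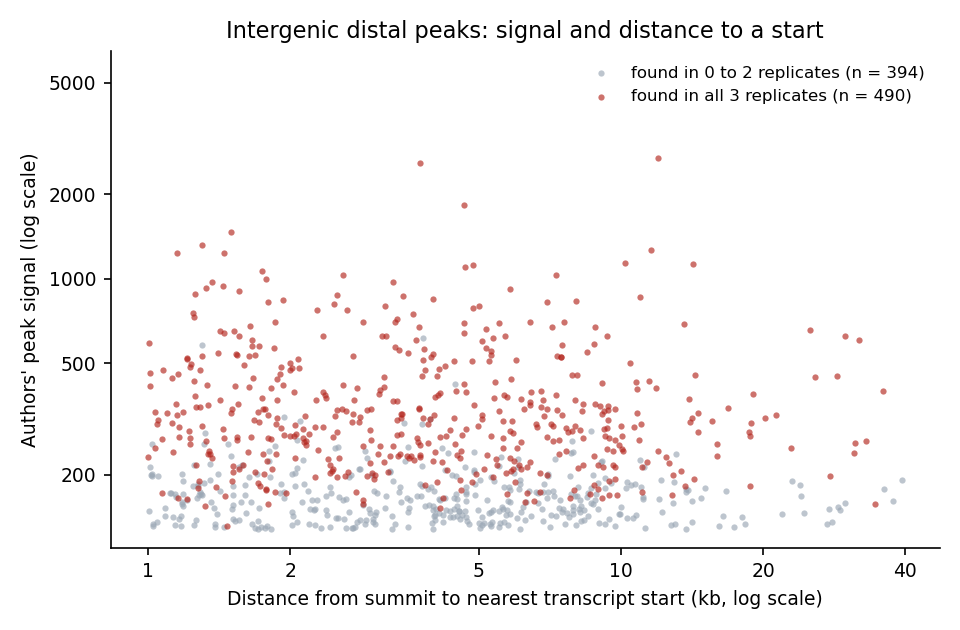
Signal of each of the 884 intergenic distal peaks (vertical, log scale, authors' units) against the distance from its summit to the nearest transcript start (horizontal, kb, log scale). Red points are the 490 peaks found in all 3 replicates and grey points the 394 others, and peaks of high signal occur at short and long distances alike, with medians from 238 nearest to starts to 200 beyond 10000 bp.

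The 20 strongest intergenic distal peaks were each found in all 3 replicates. The strongest, 9417 bp from CG13323 and 27367 bp from Su(z)2, a relative of a Polycomb group RING protein gene, had signals of 621, 708 and 1348 in replicates 3, 5 and 6. The peak between CG43245 and CG12523 at 3L 10776354 to 10776786 had 407, 530 and 906 in the same replicates and 1835 in the reproducible list. The peak between CG12078 and CG43389 (3L 3246097 to 3247182, signal 1473) had 403, 679 and 403. Among the regions of these replicates the first of these peaks ranked 14, 24 and 13, the next 43, 56 and 54, and the peak beside CG12078 45, 28 and 366, so the last stood lower in replicate 6 than in the others.

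A peak 1738 bp from the start of fz (3L 14272308 to 14272842, signal 1067), the gene of the Frizzled receptor of Wnt signalling and planar polarity, had 197, 321 and 530 in replicates 3, 5 and 6. The peak 33565 bp from fj and 5731 bp from Ote (2R 18269674 to 18270086, signal 1028) had 226, 273 and 522. The product of fj is a Golgi kinase that modifies the cadherins Fat and Dachsous, and Ote encodes a protein of the inner nuclear membrane. Between E(spl)mbeta-HLH and E(spl)malpha-BFM, which stand in the complex of Notch-responsive genes, a peak at 3R 26008611 to 26009520 (signal 1002) had 222, 278 and 489. Since each replicate has its own scale, ranks are the measure across replicates, and the fz peak ranked 364, 198 and 186, the fj peak 247, 317 and 198 and the E(spl) peak 261, 299 and 229.

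Beside other regulators, a peak between lola and psq, 1441 bp from the start of lola (2R 10544506 to 10544902, signal 944), both genes of BTB domain transcription factors, had 149, 329 and 475. The peak between RYBP, which encodes a Polycomb-associated protein, and Ppa, an F-box protein gene (2R 22677914 to 22678670, signal 1103), had 267, 490 and 370. The gene of another F-box protein, Fbxl7, was 1326 bp from a peak (3R 15919399 to 15919753, signal 930) with 255, 276 and 399. By rank the lola peak stood at 681, 184 and 246 in replicates 3, 5 and 6 and the Fbxl7 peak at 178, 307 and 372, so lola was placed lowest in replicate 3 and Fbxl7 highest there.

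**Figure D2:**
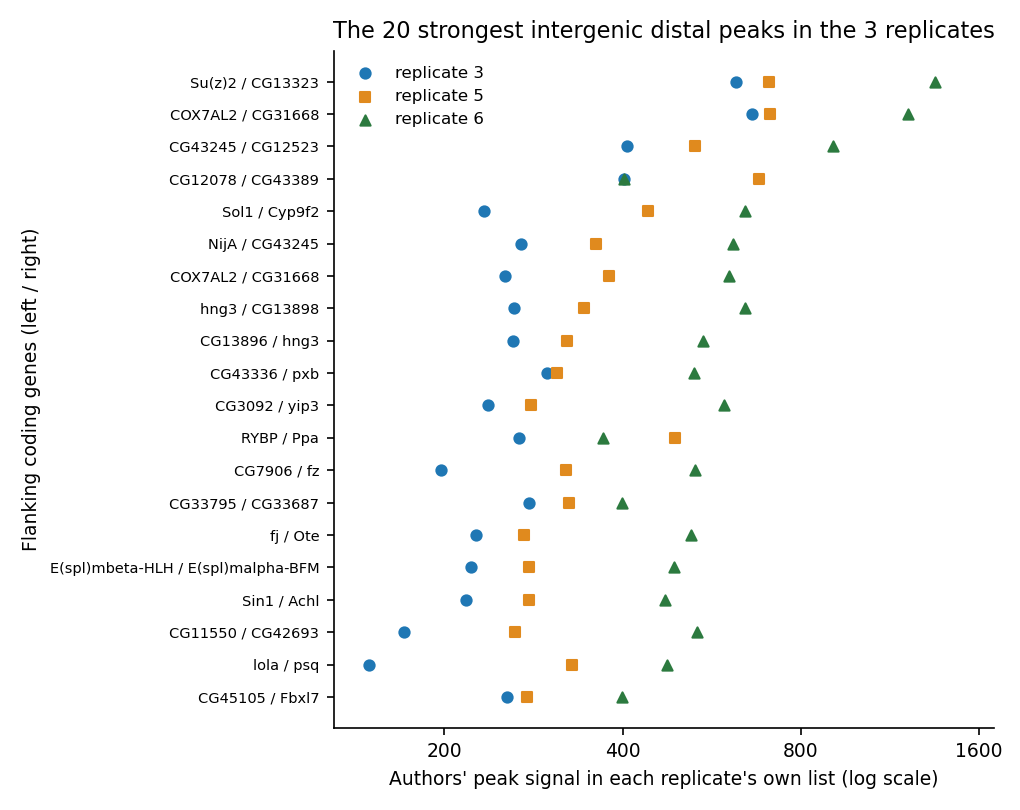
Signal of the 20 strongest intergenic distal peaks (rows, named by the flanking coding genes) in each replicate's own list (horizontal, log scale, authors' units), with circles for replicate 3, squares for replicate 5 and triangles for replicate 6. Each replicate has its own scale, so points are compared within 1 symbol, and the peak between Su(z)2 and CG13323 has the largest replicate 6 value, 1348.

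The remaining peaks among the 20 strongest lay beside Sol1 and Cyp9f2 (3R 12402942 to 12403325, signal 1323), NijA and CG43245 (3L 10759930 to 10760803, 1265), COX7AL2 and CG31668 (signals 2577 and 1241, 2 peaks of 1 stretch), hng3 and CG13898 (1232), CG13896 and hng3 (1138), CG43336 and pxb (1133), CG3092 and yip3 (1119), CG33795 and CG33687 (1029), Sin1 and Achl (978), and CG11550 and CG42693 (976). Sin1 encodes a subunit of the TORC2 kinase complex and Cyp9f2 a cytochrome P450.

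Intergenic distal peaks were not spread evenly over the chromosome arms. Distal intergenic sequence, where such a summit could lie, made up 35.7 Mb or 26.0% of the arms. It held 24.7 summits per Mb, against 56.5 per Mb for the other summits in the rest of the sequence. Of the 35.7 Mb, 2.29 Mb (6.41%) was on Y, where no summit of the list lay. Arm 3L held 328 of the 884 peaks (37.1%) with 23.4% of the distal intergenic sequence, or 39.3 per Mb. The density was 27.1 per Mb on 3R, 25.9 on 2L, 17.6 on X, 17.3 on 2R and 13.8 on chromosome 4, and no summit was on Y. Without the stretches between neighbouring genes that held 5 or more peaks, 3L had 26.4 per Mb, 2L 23.7, 3R 21.7 and X 16.2. Chromosome 4 and 2R then had 13.8 and 13.7. In the replicates' own lists, 3L had 38.2, 35.8 and 39.9 summits per Mb in replicates 3, 5 and 6 and was the densest arm in each. The X had 11.2, 14.7 and 18.02 and 2R had 17.6, 15.4 and 17.4 in the same replicates, so the order of these arms differed between replicates.

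**Figure D3:**
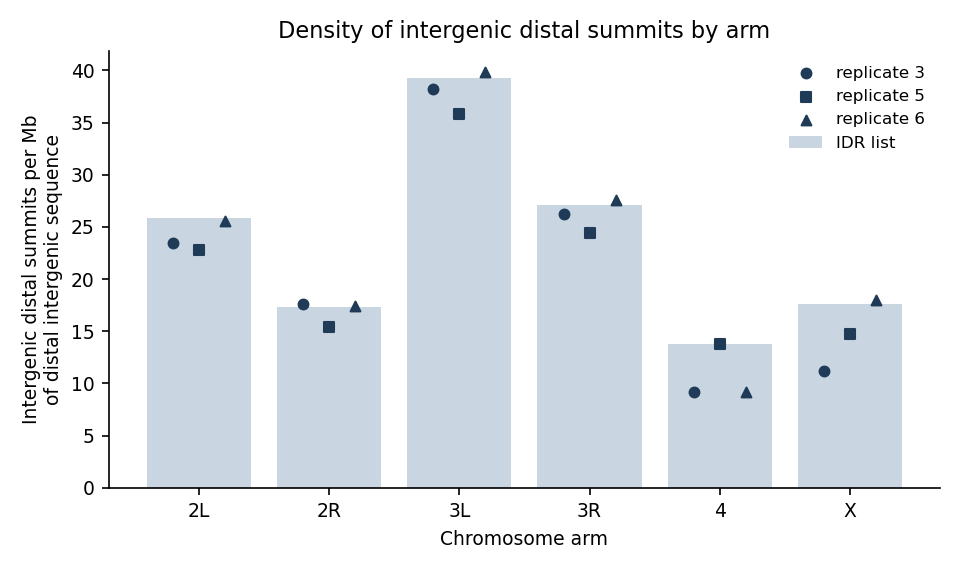
Intergenic distal summits per Mb of distal intergenic sequence (vertical) on each arm (horizontal), as bars for the reproducible list and points for the strongest 6633 regions of replicates 3 (circle), 5 (square) and 6 (triangle). Arm 3L stands highest, at 39.3 per Mb and between 35.8 and 39.9 in the replicates, while chromosome 4 holds 3 peaks in all. Without stretches of 5 or more peaks, which are not set apart here, 3L has 26.4 per Mb and 2L 23.7.

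Many intergenic distal peaks lay several to a stretch. A stretch here is the sequence between neighbouring annotated genes of any kind. The 884 peaks lay in 471 stretches, of which 184 held 2 or more peaks (597 peaks, 67.5%). The 30 stretches with 5 or more held 210 peaks (23.8%), and 15 of these stretches were on 3L.

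The most crowded stretch ran from 10696878 to 10771924 on 3L, between NijA, which encodes a membrane protein of the Ninjurin family, and CG43245. It held 15 peaks, 12 of them found in all 3 replicates, with signals from 132 to 1265. The next, between hng3 and CG13898 (3L 770463 to 803426), held 12 peaks with signals from 166 to 1232, of which 10 were found in all 3 replicates. Its strongest peaks had 262, 344 and 644 (3L 802705 to 803088) and 195, 252 and 425 (3L 781151 to 781537) in replicates 3, 5 and 6. The neighbouring stretches beside hng3 held more, and 26 intergenic distal peaks in all had CG13898 as a flanking coding gene.

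The stretch from 16177636 to 16196501 on 3L, between CG33795 and CG33687, held 10 peaks, 6 of them found in all 3 replicates, up to a signal of 905. That between Aps, the gene of a diphosphoinositol polyphosphate phosphohydrolase, and CG14147 (3L 10899124 to 10959230) also held 10, with 3 found in all replicates and a highest signal of 625. Places below these were tied, with 9 peaks in each of 3 stretches, and the stretch with the highest single signal is shown. On 3R, its 9 peaks lay between CG18404 and heca, the headcase gene (30254098 to 30272761), 7 of them found in all 3 replicates. Their median signal was 515, against 176 beside Aps. The other stretches with 9 peaks, between CG17154 and vers on 3L and between AOX4 and CG43335 on 3R, had medians of 208 and 178.

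**Figure D4:**
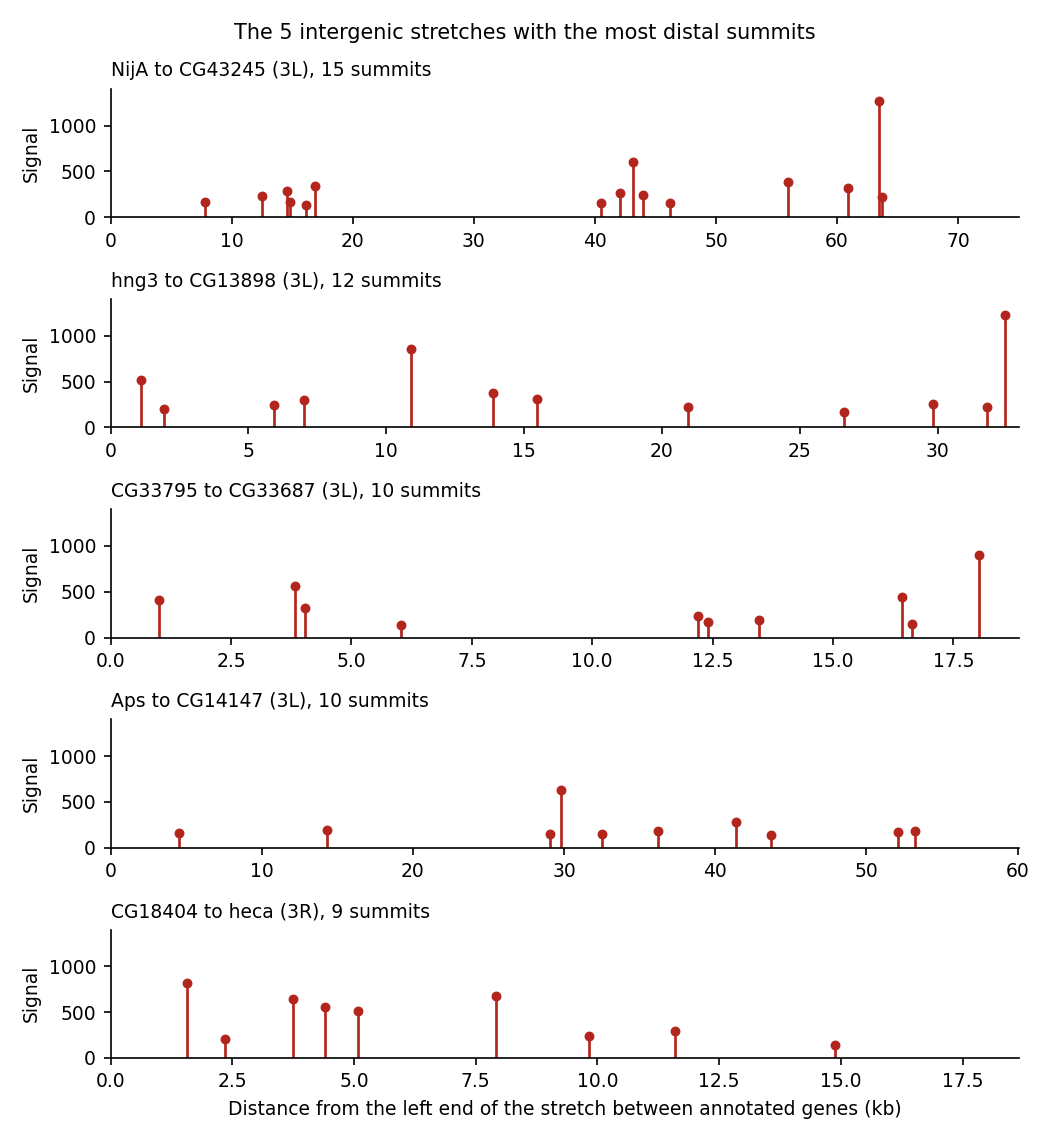
Signal of each intergenic distal peak (vertical, authors' units) along the 5 stretches with the most peaks (horizontal, kb from the left end of the stretch; the last is 1 of 3 tied at 9 peaks), 1 panel each, named by the flanking coding genes. The stretch of NijA holds 15 peaks in separate groups, and that of heca holds 9 with a median of 515.

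Among the 5 peaks farthest from any start, the highest signal was 399 and the others were below 217, the median of the 884 peaks. The farthest, 39355 bp from the start of CG43335 (3R 15595895 to 15596330, signal 191), lay between AOX4, an aldehyde oxidase gene, and CG43335, and had 34.5, 53.9 and 100 in replicates 3, 5 and 6. Another pair of summits in the same stretch (3R 15588572 to 15588948) had signals of 399 and 178. A peak between bab1 and bab2, BTB transcription factor genes of leg and abdominal pattern (3L 1139491 to 1139682, signal 161), was 37701 bp from a start and was found in 1 replicate. The last of the 5 farthest, 34548 bp from a start, was in the NijA stretch and had a signal of 158.

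The flanking genes of a summit are the nearest coding gene bodies on its left and right at any distance. A gene named below may therefore be much farther from the peak than its other flanking gene. Of 13968 coding genes 743 flanked an intergenic distal peak (5.32%). Genes with much distal intergenic sequence beside them have more room for such a peak, and of the 1554 coding genes with 10 kb or more of it 449 were flanking (28.9%). The flanking genes were in tandem for 451 peaks (51.0%), divergent for 266 (30.1%) and convergent for 167 (18.9%). The same arrangements held 51.1, 21.4 and 22.3% of the distal intergenic sequence. The gene lists used below were drawn up for this comparison and need not hold every gene of a family or pathway.

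Of components of TGF-beta and BMP signalling, the pathway of Ski and SnoN proteins, 4 of 30 flanked a peak (all coding genes, 5.32%). They were dally, a glypican that binds the ligand Dpp, Dad, the inhibitory Smad, dpp itself, and daw, an activin-type ligand gene. The strongest dally peak (3L 8821669 to 8822036) had 142, 101.4 and 138 in replicates 3, 5 and 6, that of Dad (3R 17052802 to 17053099) 118, 98.2 and 131, and that of dpp (2L 2486908 to 2487170) 83.4, 76.8 and 114. The last of these lay 27225 bp from dpp and 1149 bp from Slh. The daw peak had 40.6, 65.4 and 57.2 and was found in 2 replicates. Signals in the reproducible list were 385, 333, 270 and 164, so dally stood above the upper quartile of the 884 peaks, Dad at it and daw at the lower quartile.

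Of 23 Dpp target genes 9 flanked a peak, beside 5.32% of all coding genes. The T-box genes Doc1 and Doc2 had signals of 419 and 264, and tup, a LIM homeodomain gene, had 315. The Doc1 peak, 465 bp from the gene body (3L 9045342 to 9045624), had 81.2, 121 and 225 in replicates 3, 5 and 6. The medians of the 884 peaks were 56.7, 66.6 and 104. Since the peak was named for high signal in a list built on these replicates, values above the medians follow from the choice. Of Dpp targets with 10 kb or more of distal intergenic sequence, 6 of 10 were flanking, and of such TGF-beta components 2 of 3. For all such coding genes it was 28.9%.

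Patterning genes came next, with whole lists read beside the 5.32% of all coding genes. Of 22 segmentation genes 12 flanked a peak, and with 10 kb or more of flank 12 of 18, against 28.9% of all such coding genes. Beside hry, the bHLH repressor gene hairy, lay 13 peaks, up to a signal of 527 (3L 8667931 to 8668732), and beside the zinc finger gene drm 7, up to 627. The Wnt ligand gene wg had 5 peaks up to 352 and the nuclear receptor gene knrl 5 up to 432, the strongest 40581 bp from knrl. Of a list of Hox and other homeodomain genes 19 of 47 were flanking, and 18 of 29 with 10 kb or more of flank. The list left out other homeodomain genes that flanked a peak, such as pdm3 (615) and Dr (429). The strongest of the list were ct (signal 674), Awh (379) and ems (318). The ct peak had 166, 313 and 192 in replicates 3, 5 and 6. Of nuclear receptor, T-box, GATA and Sox genes 12 of 30 were flanking, with SoxN (625), tll (351) and mid (344, 11 peaks) among them. With 10 kb or more of flank it was 9 of 10.

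Genes of the response to ecdysone, the hormone of metamorphosis, flanked a peak in 9 of 26 cases, beside 5.32% of all coding genes. With 10 kb or more of flank it was 3 of 4, against 28.9% of all such coding genes. The transcription factor gene Blimp-1 had the strongest peak (3L 5611652 to 5612202, signal 752), with 117, 270 and 358 in replicates 3, 5 and 6. That peak lay 19052 bp from Blimp-1 and 3631 bp from Eaf6. The steroid-responsive transcription factor gene Eip93F had 7 peaks up to 700 (3R 21941210 to 21941801), with 167, 153 and 383. The orphan nuclear receptor gene Hr38 (531) and ImpE2 (416) had 1 each. The values of Blimp-1 and Eip93F were above the median of the 884 peaks in each replicate. Both were named for high signal in a list built on these replicates, so this follows from the choice.

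Genes of the other signalling pathways were counted in the same way, beside 5.32% of all coding genes. For Wnt it was 9 of 24, with nkd, an inhibitor, at 457 and Wnt6 and Wnt10, ligand genes, on either side of a peak of 566. For Hedgehog it was 4 of 17, with the receptor gene ptc (582, 7 peaks), the ligand gene hh (533) and ttv (402), which serves heparan sulfate synthesis. The hh peak lay 7338 bp from hh and 409 bp from unk. For EGFR and Ras signalling it was 8 of 28, with the inhibitor gene sty (537, 9 peaks), the ligand gene vn (357), the Ets repressor gene aop (345) and kek1 (297). For Notch it was 8 of 28, with numb (451) and the ligand gene Ser (328). The numb peak lay 26824 bp from numb and 168 bp from Gdi. For Hippo it was 5 of 18, with ex (606), the cadherin gene ft (350) and the kinase gene dco (257). With 10 kb or more of flank it was 5 of 6 for Wnt, 3 of 3 for Hedgehog and 2 of 2 for Hippo. For EGFR and Ras it was 6 of 7 and for Notch 4 of 5, against 28.9% of all such coding genes.

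Of the other lists, axon guidance and adhesion genes gave 9 of 34, with robo2 (628), Fas3 (534) and the cadherin genes shg (394) and CadN (237). Proneural and bHLH genes gave 4 of 24, with ato (244) and tx (162) beside hry, and hth (234), which is a homeodomain gene that this list also held. Muscle genes gave 4 of 27 (Zasp52 at 692, then Act87E, Act88F and sls at 182, 161 and 138), cuticle proteins 4 of 44 (Cpr51A, 402, Cpr72Ea, 348, Cpr100A, 277, and Cpr12A, 196), chemosensory receptors 3 of 38 (Gr93a, 599, Ir94h, 330, and Or67d, 318) and cytoplasmic ribosomal proteins 4 of 59 (RpL13, 370, RpL22, 268, RpLP0, 230, and RpL17, 199). The Or67d peak lay 106741 bp from that gene. The chemosensory list held 38 chosen receptor genes. Receptor genes outside it also flanked a peak, such as Gr93d (875) and Gr93b (599), as did Cpr65Eb (134) outside the cuticle list. The ribosomal (6.78%) and chemosensory (7.89%) lists were near the 5.32% of all coding genes, many of which have no distal intergenic sequence beside them. The other 15 lists lay between 9.09% and 54.5%. Among genes with 10 kb or more of flank, 15 of the 17 were above 28.9%, the exceptions being ribosomal proteins (1 of 5) and muscle genes (0 of 2). Many of these counts rest on 2 to 5 genes, and the lists share genes, so they are not 17 separate results. The limit of 10 kb does not make room equal. Over whole lists the median distal intergenic flank was 24093.5 bp for segmentation genes and 15822 bp for homeodomain genes.

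The windows around intergenic distal summits were rich in A and T. Within 100 bp on each side of the summit the median was 34.3% G+C, against 35.8% at the other summits and 41.3% in 175383 tiles of the same length over distal intergenic sequence. Shares of motifs are therefore read beside this difference in composition, whose part in them was not tested. Of 20 motifs counted on both strands, 7 were in a larger share of the 884 windows than of the tiles.

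The letters AGATAA, bound by GATA factors, were in 14.7% of the windows and in 11.3% of tiles. At summits in gene bodies they were in 14.5% and near starts in 12.7%. In replicates 3, 5 and 6 the share at their own intergenic distal summits was 14.4, 14.7 and 15.5%, above the tiles in each. TAATTA, the core of homeodomain sites, was in 16.0% against 13.9% of tiles, and in 15.5% in gene bodies and 14.8% near starts. GTCTGG, a form of the Smad binding element, was in 5.77% of windows and 6.50% of tiles, and in 5.83, 7.22 and 5.16% in the replicates, on either side of the tiles. The E-box CAGGTG was in 2.83% of windows and 6.08% of tiles.

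Some motifs common near starts were scarcer here. GAGAGAG, for the GAGA factor, was in 2.83% of the intergenic distal windows, 2.23% of tiles and 7.20% of windows near starts. TATCGATA, the core of the DNA replication-related element bound by DREF, was in 0.226% of the windows, 0.438% of tiles and 3.86% near starts. GCCATTT, for Pleiohomeotic, was instead at similar shares in all classes of summit. It was in 3.85% of the intergenic distal windows, 4.09% near starts and 4.32% in gene bodies, below the 6.27% of tiles.

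The word CACTGAGA shown at the beginning was in 60 of the 884 windows (6.79%). It was in 0.679% of windows shifted 1000 bp to the left, 0.566% of those shifted to the right and 0.650% of the tiles. At summits in gene bodies it was in 5.19% and near starts in 1.96%. The 3 replicates gave 6.67, 5.95 and 6.73% at their own intergenic distal summits (mean 6.45% ± 0.434, SD, n = 3), and pooled intergenic distal candidates that did not reach the reproducible list 2.37%. The word was chosen by counting in the 884 windows, so its larger share there than in tiles was built in. The replicates' own summits were largely the same sites and are no separate support. The smaller share of candidates outside the list is likewise read against windows used for the choice.

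The word sat beside the summit more than on it. Its median distance from the summit was 65 bp (quartiles 52 and 74.8 bp), and 46 of 60 copies lay more than 50 bp away. These distances end at the window edge of 100 bp, and the next 20 bp held a copy at 9 summits on the right side and at 4 on the left. In 54 of 60 windows it read toward the summit, so that its 3′ end faced the highest point of the peak. The same held in 108 of 113 gene body windows and 61 of 70 windows near starts. With the replicates' own summits the median distances were 61.5, 58.5 and 63.0 bp in replicates 3, 5 and 6, and 47 of 55, 43 of 47 and 56 of 60 copies read toward the summit.

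Bases around the word were also shared. A purine preceded it in 93.3% of the 60 windows, against 75.4% of the 1140 tiles with the word, and GAAA or AAAA followed it in 40 of 60 (66.7%), against 35.9%. Among the sequences shown at the beginning, the copy between Wnt6 and Wnt10 is such a case, and its peak (2L 7358056 to 7358357, signal 566) had 166, 159 and 243 in replicates 3, 5 and 6. Peaks with the word had a median signal of 232 and the others 216, and 53.3 and 55.6% of them were found in all 3 replicates.

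**Figure D5:**
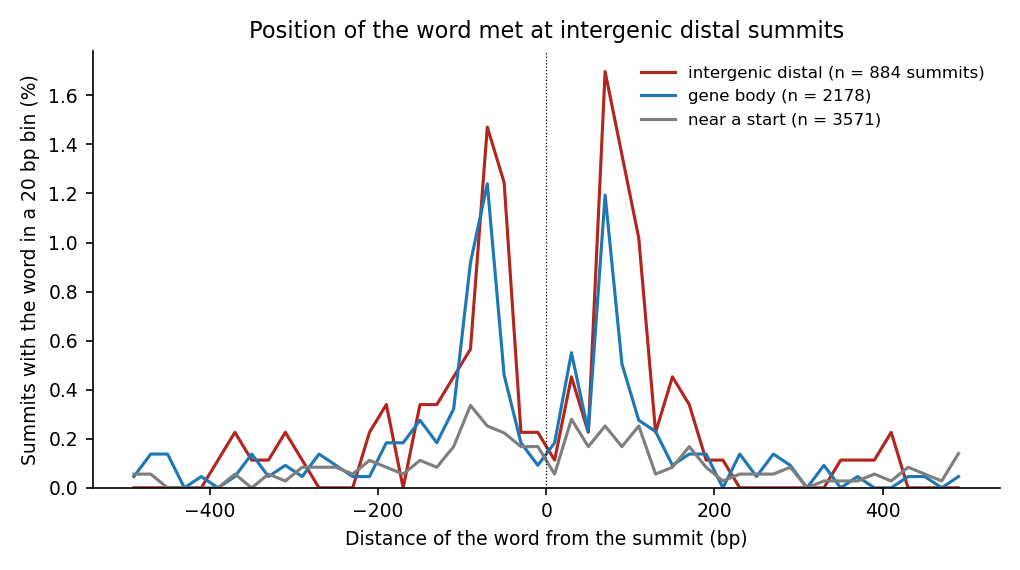
Share of summits with the word in a 20 bp bin (vertical, %) against its distance from the summit (horizontal, bp, plus strand of the genome), for intergenic distal summits (red, n = 884), gene body summits (blue, n = 2178) and summits near a start (grey, n = 3571). The red and blue lines have maxima on both sides of the summit and a low between them, where the median distance was 65 bp, and the grey line is lower at both maxima.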

How the data were processed

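ChIP-seq peak lists from 3 biological replicates of 1 group were used. The values are the signal of the authors' peak caller in the deposited narrowPeak lists on dm6, 1 list for each replicate (29994 regions in replicate 3, 30000 in the others), 1 for the pooled replicates and 1 thresholded on reproducibility. For the aligner, the peak caller and the threshold, names and versions were not given in the sources used here. Lists on dm3 were not used. Depth is unknown.

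Genes came from the Ensembl annotation of BDGP6 and bases from the RefSeq assembly of that build. RefSeq genes gave the same 884 peaks. Printed sequences exclude arm 2R. Tools were pandas 2.3.3, scipy 1.17.1, numpy 2.4.6 and matplotlib 3.10.9 under python 3.11.15, and the scripts were tested on simulated data. Replicates were compared with exact sign-flip permutation tests. Windows reached 100 bp to either side of the summit, and 201 bp tiles covered distal intergenic sequence, that of Y included. Of the genes listed, 2 matched no coding gene (ban and let-7-C) and were left out.

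Named items were the 20 strongest peaks, the 5 most crowded stretches, the 5 peaks farthest from a start and up to 4 flanking genes of each of 17 lists. Members, lists and motifs were chosen with earlier results of these data known.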

Additional observations from a re-analysis of the deposited data

How the results depend on the processing

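The share of 13.3% was 15.7% with a limit of 500 bp from starts, 9.95% with 2000 bp and 17.4% with protein-coding genes only, and 12.3 to 13.9% when a replicate was left out. The median distance to a start was 3719 bp in the strongest 3317 peaks, 3765 bp in peaks found in all 3 replicates, 3187 bp with a limit of 500 bp, 5324 bp with 2000 bp, 5821.5 bp with coding genes only, 3748 bp with transposable elements as genes and 3759.5 to 3904 bp without 1 replicate. The limit sets both values by construction. Flanking coding genes numbered 447 and 489, and stretches with 2 or more peaks 84 and 100, in the strongest 3317 peaks and in those found in all replicates, which hold fewer peaks. Without 1 replicate the stretches numbered 103 (without replicate 6) to 127 and the flanking genes 511 to 596. The median G+C was 31.7% with 50 bp windows. The difference in recovery turned positive in the strongest 3317 peaks (0.665 percentage points), against all candidate regions (1.43) and without replicate 3 or 5 (range −3.08 to 2.13 over the 3 replicates left out), and the cause was not tested. The share with the word was 7.42% in the strongest 3317 peaks and 1.36% with 50 bp windows, where most copies lie outside. This word and its settings were chosen after seeing the data. The difference in signal kept its sign in all 9 alternatives. No paired analysis was possible because the samples form 1 group, so that no replicate number pairs samples of different groups (the sign-flip tests compare classes of summits within a replicate). Unknown depth limits every comparison of weak peaks, and 105 of the 884 peaks share an overlapping interval with another summit of the list.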
